A study of Saccharomyces cerevisiae with 18 samples.

Results

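The cisplatin response of W303-Δ*sky1* was taken from 6 of the 12 arrays of the study, 3 of untreated and 3 of cisplatin-treated cells of this deletion strain. W303 is a *MATa* laboratory strain of *Saccharomyces cerevisiae* that carries mutations in *ADE2*, *CAN1*, *HIS3*, *LEU2*, *TRP1* and *URA3*, and W303-Δ*sky1* is the same strain without *SKY1*, which encodes a protein kinase of SR-like RNA-binding proteins. Each W303-Δ*sky1* culture in complete synthetic medium was split, and 1 aliquot received DMSO and the other 600 µM cisplatin in DMSO for 4 h, with 3 biological replicates numbered 1 to 3. The other 6 arrays hold W303 grown and treated in the same ways. Each array measured the RNA of a whole culture, so a change in the share of cells that make a transcript and a change in its level per cell cannot be told apart.

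No deposited table holds both groups of W303-Δ*sky1*. Untreated cells were normalized together with untreated W303 (run 1), treated cells with treated W303 (run 3), and another run holds W303 with and without the drug (run 2). The response was therefore linked gene by gene through the W303 arrays, which appear in 2 runs each: the response of W303 in run 2, plus the difference of W303-Δ*sky1* from W303 in run 3, minus that difference in run 1. The levels below are log2 signals of single arrays moved to the scale of run 2 by this link, in the order of replicates 1, 2 and 3, and a difference is given with the SD of the 3 differences between arrays of equal replicate number. Tests were run only within a table, since the tables were normalized separately, so the linked difference is given without a p. A gene was called higher or lower where the difference reached 1.6-fold (0.68 on the log2 scale) and the 3 levels of each group did not overlap. No gene past 1.6-fold had overlapping groups, so the second condition removed none. The link moved the difference of a gene by -0.31 to 0.32 between the 1st and the 99th percentile of genes. For a gene it moves all arrays of a group by the same amount. The SD given with a difference therefore leaves out the error of the link and of the W303 means in it. The median SD was 0.08 within untreated and 0.08 within treated W303-Δ*sky1*.

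All 6 arrays resembled each other in their overall signal, with replicates of a group correlated at r of 0.992 or more, and 98.6% to 98.9% of genes stood above background, the level that 95% of the *Schizosaccharomyces pombe* probe sets of an array stay under. The deposited signal of *SKY1* (YMR216C) was 0.54, 1.33 and 0.56 in untreated and 1.43, 1.17 and 1.03 in treated W303-Δ*sky1*, above background on 1 array of each group, against 7.98 to 8.18 in W303, so no response is given for it. The a-specific genes *MFA1*, *MFA2*, *STE2*, *STE6*, *BAR1* and *AGA2* were above background on all 6 arrays, and of the α-specific genes *MF(ALPHA)1*, *MF(ALPHA)2* and *STE3* were at 1.09 to 2.44, low but mostly above background (*MF(ALPHA)2* and *STE3* on all 6 arrays, *MF(ALPHA)1* on 5). *SAG1*, the α-agglutinin, was at 7.14 to 7.21, which goes against its place among genes that a *MATa* strain keeps off, and whether its probe set measures *SAG1* alone could not be checked.

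Cisplatin is a platinum compound that forms adducts with DNA and binds readily to the sulfur of cysteine, methionine and glutathione. Yeast takes up sulfate, activates and reduces it to sulfide, and builds homocysteine, cysteine, methionine and AdoMet from it, under the activator Met4 with its DNA-binding partners Met31, Met32 and Cbf1. Of 5698 genes, 161 were called higher in treated than in untreated W303-Δ*sky1* (2.83%) and 157 lower (2.76%), and 56 and 32 of these reached 2-fold. Without the fold threshold, the 3 levels of each group did not overlap for 1447 genes higher (25.4%) and 1784 lower (31.3%) with cisplatin. The median over all genes was -0.03. Of the 15 genes farthest up, 11 belonged to the sulfur lists, and the others were *FIT2* and *TIS11* of the iron regulon, the recombination gene *RAD59* and *MXR1*, for methionine sulfoxide reductase. Those farthest down included genes of ribosome synthesis, ammonium assimilation and lysine synthesis. Just inside the threshold lay *BNA4* at 0.68, *NOP9* at -0.68 and *IFH1* at -0.68, and just outside it *SNP1*, *DBP8* and *PHM6*, each at -0.68.

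**Figure D1:**
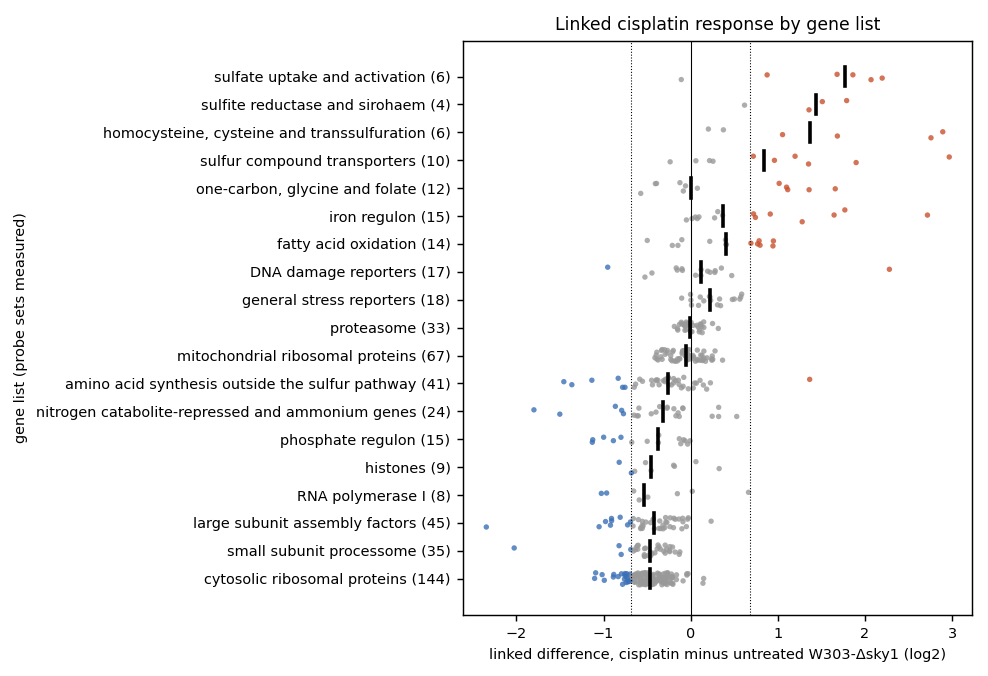
Each point is a gene or a probe set shared by several genes, placed by its linked log2 difference between treated and untreated W303-Δ*sky1* (horizontal axis) in the gene list it belongs to (vertical axis, with the number of probe sets measured). Orange and blue points are genes called higher and lower, grey points were not called, black bars are list medians and dotted lines mark 1.6-fold. Sulfate uptake and activation has the highest median of the lists drawn, 1.77, and RNA polymerase I the lowest, -0.54.

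Uptake and activation of sulfate was called higher in 5 of its 6 genes, with a median of 1.77. *SUL1* and *SUL2* encode the high-affinity sulfate permeases. The linked levels of *SUL2* (YLR092W) were 5.42, 5.29 and 5.19 untreated and 7.41, 7.34 and 7.36 with cisplatin, a difference of 2.07 ± 0.09. *SUL1* (YBR294W) went from 5.99, 6.16 and 6.14 to 7.76, 7.73 and 7.84, a difference of 1.68 ± 0.10. For both permeases each treated array lay above each untreated one by more than 1 log2 unit. *MET3* encodes ATP sulfurylase and *MET14* adenylylsulfate kinase, the enzymes that activate sulfate. *MET14* (YKL001C) was at 5.61, 6.10 and 5.88 untreated and 8.03, 8.13 and 8.02 with the drug (2.20 ± 0.20), and *MET3* (YJR010W) at 4.88, 4.91 and 5.13 and 6.82, 6.84 and 6.84 (1.86 ± 0.13). *MET16*, the reductase of activated sulfate, was called at a smaller difference of 0.88 ± 0.03. *MET22*, whose phosphatase clears the adenosine bisphosphate left by that reaction, was the member not called, with overlapping levels of 7.39, 7.58 and 7.48 and 7.41, 7.40 and 7.32.

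The next step, reduction of sulfite to sulfide, was called higher in 3 of 4 genes, with a median of 1.43. *MET10* and *MET5* encode the subunits of sulfite reductase. *MET10* (YFR030W) was at 8.08, 8.11 and 8.09 untreated and 9.89, 9.86 and 9.91 treated, a difference of 1.79 ± 0.03, one of the tightest among the sulfur genes. *MET5* differed by 1.51 ± 0.09. Of the genes for sirohaem, the cofactor of this enzyme, *MET8* was called at 1.36 ± 0.14, and *MET1* stayed under the threshold at 0.62 ± 0.05 although its groups did not overlap.

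Incorporation of sulfide and transfer of sulfur between homocysteine and cysteine was called higher in 4 of 6 genes, with a median of 1.37. *MET2* encodes homoserine O-acetyltransferase, which makes the acceptor for sulfide. *MET2* (YNL277W) had levels of 4.51, 4.48 and 4.00 untreated and 7.30, 7.20 and 7.17 with cisplatin, a difference of 2.89 ± 0.25 or 7.43-fold. *STR3* (YGL184C), for cystathionine β-lyase, went from 4.59, 4.99 and 4.86 to 7.69, 7.50 and 7.52, a difference of 2.76 ± 0.30. Of all genes, only *SEO1* lay farther up than these in W303-Δ*sky1*. *MET17*, which joins sulfide to O-acetylhomoserine, differed by 1.68 ± 0.11, and *CYS3*, for cystathionine γ-lyase, by 1.05 ± 0.12. *CYS4* at 0.37 and *STR2* at 0.20, for cystathionine β- and γ-synthase, were not called.

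Smaller shares of the next lists were called. In methionine synthesis from aspartate, which runs through homoserine, 2 of 7 were called higher. These were *MET6* for methionine synthase at 1.11 ± 0.10 and *MET13* for methylenetetrahydrofolate reductase at 0.70 ± 0.10. *MET13* was under the threshold without the link, at 0.61, and without untreated replicate 1 or 3, at 0.68 and 0.67. It was also under it with quantile, median or cyclic loess normalization of the 6 arrays, at 0.61, 0.61 and 0.62. In the AdoMet cycle and methionine salvage 2 of 11 were called, *SAM1* for AdoMet synthetase at 1.44 ± 0.11 and *MHT1* for homocysteine methyltransferase at 0.82 ± 0.04. *MHT1* was just under the threshold without the link, at 0.68, and with each array centred on its median, at 0.67. The second AdoMet synthetase gene, *SAM2*, was at 0.20, and *SAH1*, for S-adenosylhomocysteine hydrolase, at -0.58. The medians of these lists were 0.07 and -0.24.

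Among the regulators 1 of 6 was called. *MET32* (YDR253C) encodes a zinc finger protein that brings Met4 to promoters, and its levels were 3.08, 3.07 and 3.05 untreated and 5.34, 5.47 and 5.43 treated, a difference of 2.35 ± 0.07. Neither *MET4* at -0.09 nor *CBF1* at -0.08, *MET31* at -0.21, *MET30* at 0.32 or *MET28* at 0.52 was called. The members of this list thus ran from -0.21 to 2.35.

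Transporters of sulfur compounds were called higher in 6 of 10, with a median of 0.84. *SEO1* (YAL067C), a putative permease of the Dal5 family, had the largest positive difference of all genes in W303-Δ*sky1*: 2.70, 3.10 and 2.79 untreated, 5.95, 5.71 and 5.82 with cisplatin, a difference of 2.97 ± 0.32 or 7.82-fold. *MUP1*, the high-affinity methionine permease, was at 6.53, 6.36 and 6.47 and 8.44, 8.24 and 8.38 (1.90 ± 0.02). Without the link the difference of *MUP1* was 2.16. *MMP1* for S-methylmethionine uptake differed by 1.35 ± 0.03, *AGP3* by 1.20 ± 0.30, the low-affinity methionine permease gene *MUP3* by 0.96 ± 0.02 and the cysteine transporter gene *YCT1* by 0.72 ± 0.09. *YCT1* fell under the threshold when treated replicate 1 was left out, at 0.62. *OPT1*, which carries glutathione, and *SAM3*, which carries AdoMet, were not called, at 0.22 and 0.26.

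**Figure D2:**
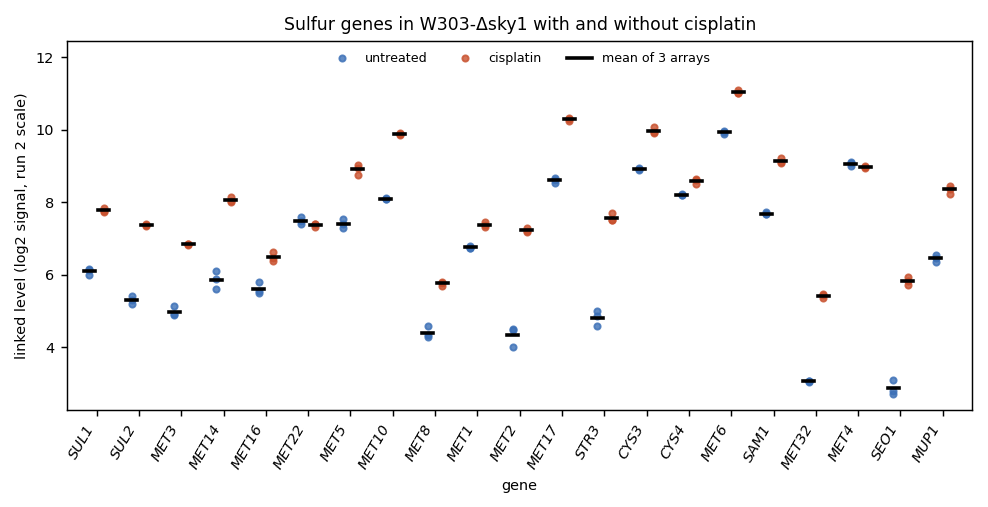
Linked log2 signal (vertical axis, scale of run 2) of each W303-Δ*sky1* array for 21 sulfur genes (horizontal axis), with 3 untreated arrays in blue, 3 treated arrays in orange and bars at group means. Both groups lie apart for most of the genes from uptake to sulfide incorporation, and overlap for *MET22*.

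Genes that supply serine, glycine and one-carbon units were higher in part, with 5 of 12 called higher, 0 lower and a median of 0.01. Of all genes 2.83% were called higher. The glycine cleavage genes *GCV1*, *GCV2* and *GCV3* differed by 1.66 ± 0.05, 1.36 ± 0.11 and 1.10 ± 0.03. The levels of *GCV1* (YDR019C) were 8.58, 8.42 and 8.30 untreated and 10.19, 10.07 and 10.02 treated, with a gap of over 1 log2 unit between the groups. *SHM2*, the cytosolic serine hydroxymethyltransferase, was called at 1.01 ± 0.08, while its mitochondrial counterpart *SHM1* was at -0.12. *MTD1*, for cytosolic methylenetetrahydrofolate dehydrogenase, was called at 1.11 ± 0.04. *SER33*, for phosphoglycerate dehydrogenase at the entry to serine synthesis, went from 6.72, 6.83 and 6.75 to 8.11, 8.13 and 8.16 (1.36 ± 0.06), and its paralogue *SER3* was at -0.25. In *de novo* purine synthesis 1 of 10 was called, *ADE17* at 1.25 ± 0.11.

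Redox and DNA damage genes were called singly, at counts not far from the shares over all genes (2.83% higher and 2.76% lower). *MXR1* (YER042W), for methionine-S-sulfoxide reductase, was at 6.15, 6.34 and 6.22 untreated and 8.49, 8.51 and 8.43 with cisplatin, a difference of 2.24 ± 0.09. *OYE3*, for an NADPH oxidoreductase, differed by 1.32 ± 0.10. These were the 2 called of 26 genes for peroxide, thioredoxin and glutathione defence, whose median was 0.13, and *TRX2*, *TSA1* and *GSH1* were at -0.01, -0.14 and 0.56. Of 17 DNA damage reporters 1 was called higher, *RAD59* (YDL059C), whose product anneals single strands in recombination. Its levels were 4.23, 4.17 and 3.91 untreated and 6.42, 6.44 and 6.29 treated, a difference of 2.28 ± 0.10 or 4.86-fold. *HUG1*, an inhibitor of ribonucleotide reductase that is known to rise with DNA damage, was called lower, from 8.38, 8.46 and 8.41 to 7.41, 7.55 and 7.43 (-0.95 ± 0.04). In run 1 untreated W303-Δ*sky1* held more *HUG1* than untreated W303, by 1.33 (limma, adjusted p = 1.69e-05). The ribonucleotide reductase genes *RNR1*, *RNR2*, *RNR3* and *RNR4* were at -0.53, 0.28, 0.06 and 0.12, none of them called.

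Iron genes were called higher in 7 of 15, with a median of 0.37, where 2.83% of all genes were called higher. In yeast the activators Aft1 and Aft2 raise the uptake genes of this list when iron is short. *FIT2* (YOR382W) encodes a mannoprotein that holds iron siderophores in the cell wall. It was at 3.70, 3.86 and 3.69 untreated and 6.33, 6.68 and 6.40 with cisplatin, a difference of 2.72 ± 0.09 or 6.57-fold. *SIT1* (YEL065W), a siderophore transporter gene, went from 5.68, 5.31 and 5.44 to 7.25, 7.02 and 7.09 (1.65 ± 0.08). The groups did not overlap for either gene, which the call required. The ferroxidase gene *FET3* differed by 1.28 ± 0.18 and *FTR1*, for its permease partner, by 0.74 ± 0.06, and the siderophore transporter genes *ARN1* and *ARN2* by 0.91 ± 0.11 and 0.72 ± 0.04. *TIS11*, whose product binds mRNAs of iron-using proteins for decay, was called at 1.77 ± 0.25, with the highest level in treated replicate 1 (5.62, 5.26 and 5.28). *FIT1* and *FIT3*, the relatives of *FIT2*, were at 0.31 and 0.37, and the reductase genes *FRE1*, *FRE2* and *FRE3* at -0.05, 0.08 and 0.02. None of the 10 genes for copper uptake and handling was called, with a median of 0.07.

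Peroxisomal fatty acid oxidation was called higher in 6 of 14, with a median of 0.41, beside 2.83% of all genes. *POT1* (YIL160C), for the thiolase of the last step, was at 8.82, 8.71 and 8.83 untreated and 9.84, 9.68 and 9.68 treated (0.95 ± 0.08). *POX1*, *FOX2* and *ECI1*, for the oxidase, the multifunctional enzyme and an isomerase of the same pathway, differed by 0.69 ± 0.06, 0.80 ± 0.07 and 0.78 ± 0.06. *PXA1*, for a subunit of the fatty acid importer, differed by 0.94 ± 0.04 and *FAA2*, for an acyl-CoA synthetase, by 0.77 ± 0.11. The carnitine genes *YAT1*, *YAT2*, *CRC1* and *CAT2* were not called, at -0.10, -0.50, -0.15 and 0.41.

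Other genes of respiratory carbon use were called in both directions. Over all genes 2.83% were called higher and 2.76% lower. The counts for the respiratory chain, TCA cycle and glycolysis lists were near these shares. *NDE2* (YDL085W), for a mitochondrial NADH dehydrogenase of the outer face, was at 5.99, 5.89 and 5.84 untreated and 7.25, 7.21 and 7.11 with cisplatin (1.28 ± 0.04), while *NDE1* was at -0.02. Of the cytochrome c genes, *CYC7* was called higher at 0.72 ± 0.21 and *CYC1* lower at -1.03 ± 0.08. Untreated replicate 2 had the highest of the untreated *CYC7* levels (9.34, 9.76 and 9.37), and without untreated replicate 1 or 3 it was under the threshold, at 0.65 and 0.66. With *NDE2* these were the 3 called of 35 respiratory chain and ATP synthase genes, whose median was -0.14. Of 11 gluconeogenesis and glyoxylate cycle genes 3 were called: the acetate permease gene *ADY2* and the acetyl-CoA synthetase gene *ACS1* higher at 0.91 ± 0.11 and 0.69 ± 0.03, and *CIT2*, for peroxisomal citrate synthase, lower at -0.75 ± 0.11. *ACS1* was at 0.60 without the link and at 0.65, 0.68 and 0.65 without untreated replicate 2 or 3 or treated replicate 1, each under the threshold. With quantile, median or cyclic loess normalization of the 6 arrays it was under it as well, at 0.62, 0.60 and 0.63. Without W303 untreated replicate 1 a further member of this list was called lower. Of 11 glycerol genes 3 were called as well. *GUT2*, for mitochondrial glycerol-3-phosphate dehydrogenase, was called higher at 0.94 ± 0.06, and *RHR2*, for glycerol-3-phosphatase, lower from 9.62, 9.80 and 9.72 to 8.30, 8.25 and 8.13 (-1.49 ± 0.14). *DAK2*, for dihydroxyacetone kinase, was lower at -0.74 ± 0.20, and without treated replicate 3 it was at -0.66, under the threshold. None of 16 TCA cycle genes was called, and of 17 glycolysis genes *TYE7*, a transcription factor, was called lower at -0.83 ± 0.03. Of 15 hexose transporter probe sets 2 were called higher, *HXT13* at 1.06 ± 0.05 and one it shares with *HXT17* at 0.86 ± 0.20.

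**Figure D3:**
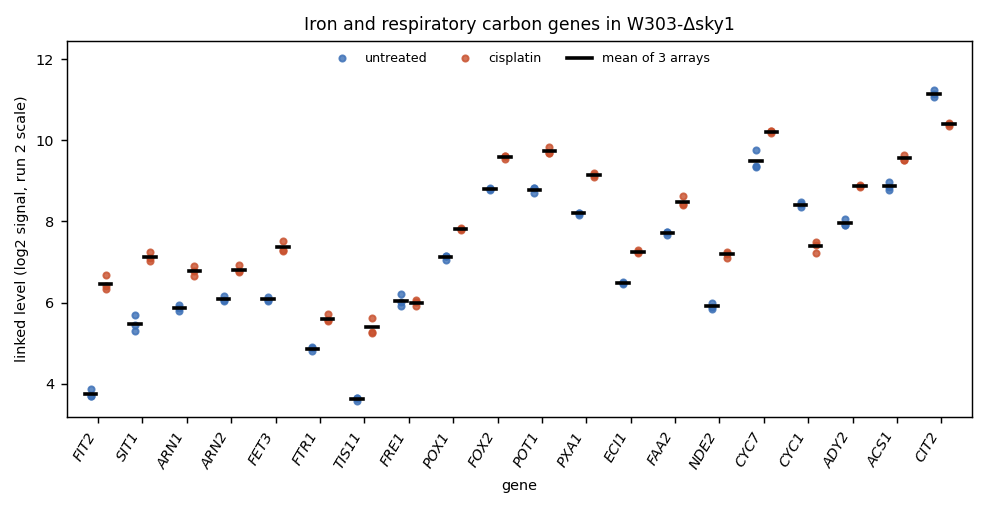
Linked log2 signal (vertical axis, scale of run 2) of each W303-Δ*sky1* array for 20 genes of iron and respiratory carbon use (horizontal axis), untreated in blue and treated in orange, with bars at the means of 3 arrays. *FIT2* shows the widest gap, *FRE1* overlaps, and *CYC1* and *CIT2* lie lower with cisplatin.

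Genes for making ribosomes lay lower with cisplatin. Over all 5698 genes, 3072 had a difference below 0 and 2.76% were called lower. Of the 144 probe sets listed for cytosolic ribosomal proteins 142 had a difference below 0, 20 were called lower and 0 higher, with a median of -0.47. *RPL6B* (YLR448W), of the large subunit, was at 7.59, 7.76 and 7.70 untreated and 6.63, 6.60 and 6.50 treated (-1.10 ± 0.13), and *RPS0A*, of the small subunit, at 7.83, 8.04 and 7.98 and 6.96, 6.92 and 6.70 (-1.09 ± 0.21). Both genes have a near-identical paralogue, so part of their signal may be shared, and several probe sets of this list cover the same genes. The list also holds *RPP1*, for a subunit of RNase P and not of the ribosome, at -0.45. All 35 genes of the small subunit processome, which processes the rRNA precursor, were below 0, with a median of -0.46 and 4 called lower. Among the 45 large subunit assembly factors 44 were below 0, with a median of -0.42 and 9 called lower. By contrast, the 67 mitochondrial ribosomal protein genes had a median of -0.06 with 0 called.

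The ribosome assembly genes farthest down were *DBP2* and *NSR1*. *DBP2* (YNL112W), for an RNA helicase, had the most negative difference of all genes, from 6.18, 6.13 and 6.22 untreated to 3.94, 4.08 and 3.48 with cisplatin, a difference of -2.35 ± 0.36 or 5.09-fold, with treated replicate 3 the lowest. *NSR1* (YGR159C), for a nucleolin-like protein of rRNA processing, was at 6.90, 7.00 and 7.04 and 4.88, 4.89 and 5.10 (-2.03 ± 0.09). Further down the list came *BRX1* at -1.05 ± 0.06, *MAK16* at -0.98 ± 0.40 and *MRT4* at -0.92 ± 0.13 for the large subunit. For the small subunit these were *IMP3* at -0.82 ± 0.23, *UTP23* at -0.80 ± 0.07 and *NOP1*, for the methyltransferase fibrillarin, at -0.69 ± 0.13. *NOP1* was under the threshold in 8 of 17 alternative computations. Of 8 RNA polymerase I genes, the subunit genes *RPA43* and *RPA49* were called lower at -1.03 ± 0.05 and -0.97 ± 0.21, and the initiation factor gene *RRN3* was at 0.66.

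Part of the processome and assembly genes were also lower in the deletion strain than in W303 without the drug. In run 1, 15 of the 35 processome genes and 18 of the 45 assembly factors were called lower in untreated W303-Δ*sky1* than in untreated W303 with limma, where 5.28% of all genes were called lower and 4.93% higher. In run 3, with cisplatin in both strains, the counts were 23 of 35 and 33 of 45, where 11.2% of all genes were called lower and 8.78% higher.

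Of the 15 genes farthest down, 4 act on nucleobases and nucleotides, a grouping made after their values were seen. *AAH1* (YNL141W), for adenine deaminase, was at 5.47, 5.39 and 5.25 untreated and 3.40, 3.23 and 3.28 with cisplatin (-2.07 ± 0.10). *FUR1* (YHR128W), for uracil phosphoribosyltransferase, went from 5.98, 6.18 and 6.24 to 4.74, 4.63 and 4.25 (-1.59 ± 0.38), with treated replicate 3 again the lowest. *FCY2*, the purine-cytosine permease gene, differed by -1.22 ± 0.20. A probe set shared by *IMD1* and *IMD2*, genes of IMP dehydrogenase, differed by -1.33 ± 0.24, and *IMD4* by -1.05 ± 0.10. These genes resemble each other, so part of their signal may be shared.

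Ammonium uptake and assimilation was lower in parts, where 2.76% of all genes were called lower. *GLN1* (YPR035W), for glutamine synthetase, was at 9.44, 9.53 and 9.43 untreated and 7.72, 7.59 and 7.68 with the drug (-1.80 ± 0.12). *MEP2* (YNL142W), for the high-affinity ammonium permease, was at 8.44, 8.46 and 8.58 and 7.10, 6.90 and 6.97 (-1.50 ± 0.14). The other ammonium permease genes, *MEP1* and *MEP3*, differed by -0.87 ± 0.10 and -0.77 ± 0.05, so that the whole family lay lower. These genes and *DAL2* made up the 5 called lower of 24 nitrogen catabolite-repressed and ammonium genes, whose median was -0.31, and *GAP1* and *PUT1* were at -0.13 and -0.09.

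Among 41 genes of amino acid synthesis outside the sulfur pathway, 6 were called lower and 1, *SER33*, higher, with a median of -0.26. The shares over all genes were 2.76% and 2.83%. Of those called lower, 4 belong to lysine synthesis through α-aminoadipate. In pathway order, *LYS20* for homocitrate synthase differed by -1.13 ± 0.08, *LYS4* for homoaconitase by -1.36 ± 0.05, *LYS12* for homoisocitrate dehydrogenase by -0.78 ± 0.15 and *LYS9* for saccharopine reductase by -1.46 ± 0.20. The levels of *LYS9* (YNR050C) were 8.86, 8.99 and 9.05 untreated and 7.63, 7.45 and 7.45 treated, and those of *LYS4* (YDR234W) 8.13, 8.17 and 8.15 and 6.82, 6.75 and 6.80. *LYS2*, *LYS1* and *LYS21* were not called, at -0.30, -0.29 and -0.45. The other members called lower were *ASN1* at -0.83 ± 0.18 and *LEU9* at -0.75 ± 0.02.

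All 15 phosphate regulon genes had a difference below 0, with a median of -0.37 and 5 called lower. Of all 5698 genes, 3072 were below 0 and 2.76% were called lower. The 5 phosphate genes called are given next. These were the acid phosphatase gene *PHO5* at -1.13 ± 0.12, a probe set shared by *PHO11* and *PHO12* at -0.80 ± 0.08, the glycerophosphoinositol permease gene *GIT1* at -1.12 ± 0.08 and the phosphate permease genes *PHO84* at -0.89 ± 0.18 and *PHO89*. The sodium-phosphate cotransporter gene *PHO89* had levels of 6.65, 6.66 and 6.74 untreated and 5.64, 5.65 and 5.75 treated, with means of 6.68 and 5.68 and an SD of 0.01 over the paired differences. *PHO3*, for an acid phosphatase, was the 1 called of 13 thiamine regulon genes and went from 4.46, 4.32 and 4.24 to 2.98, 2.92 and 3.01 (-1.37 ± 0.12). Of 9 histone probe sets 2 were called lower, *HTA2* at -0.82 ± 0.09 and *HTB2* at -0.68 ± 0.06, and *HTB2* lay between -0.68 and -0.63, under the threshold, without untreated replicate 2 or 3, treated replicate 1, or replicate 1 or 2 of either W303 group. Also among the 15 genes farthest down were *YHB1*, for the flavohaemoglobin that removes nitric oxide, at -1.45 ± 0.08, and *UTR2*, for a cell wall glucan-chitin transglycosylase, at -1.31 ± 0.13.

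**Figure D4:**
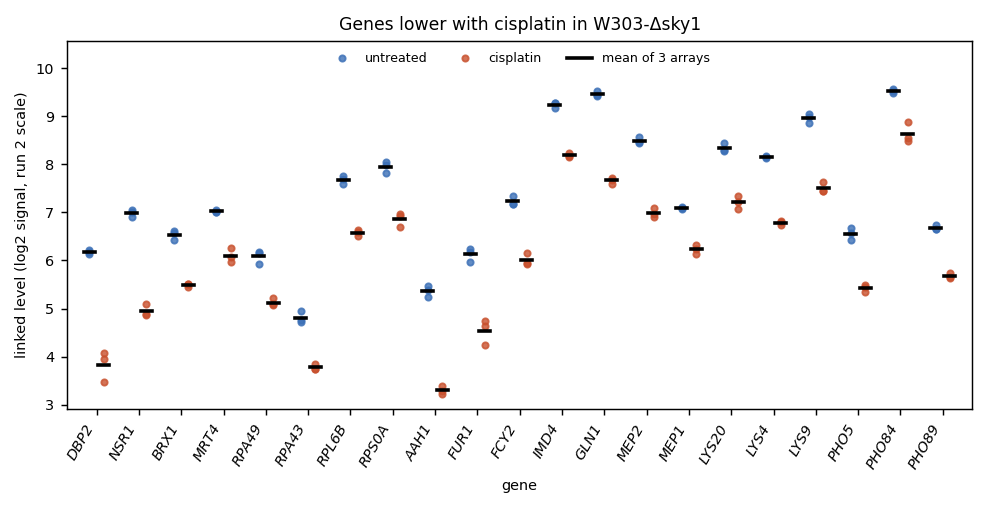
Linked log2 signal (vertical axis, scale of run 2) of each W303-Δ*sky1* array for 21 genes called lower with cisplatin (horizontal axis), untreated in blue and treated in orange, with bars at the means of 3 arrays. The 2 groups do not overlap for any gene drawn, which the call required.

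Several lists held few or no calls. Over all genes 2.83% were called higher and 2.76% lower, so 0 or 1 call in lists of this length is near that share. None of 33 proteasome genes was called, with a median of -0.01 and a range of -0.19 to 0.32. Of 22 heat shock chaperone genes 1 was called, *HSP31* at 0.82 ± 0.05, and *HSP104* and *SSA4* were at 0.13 and -0.23. The 18 general stress reporters had 0 called, but 16 lay above 0, with a median of 0.22 beside -0.06 in W303. The groups did not overlap for 12 of them on the higher side and 1 on the lower. Over all genes these shares were 25.4% and 31.3%. *SOL4*, *GPH1*, *RTN2* and *PGM2* were at 0.58, 0.57, 0.56 and 0.50, and *HSP12* and *CTT1* at 0.01 and 0.21. Of 12 drug pump genes 1 was called, *RSB1* at 0.78 ± 0.19, while *PDR5*, *SNQ2* and *YCF1* were at 0.00, 0.21 and 0.30. *RSB1* was under the threshold without the link, at 0.56, and with quantile or median normalization, at 0.68 and 0.56. Without treated replicate 1 it was at 0.67. *NPL3*, for a known substrate of Sky1, and the SR-like protein genes *GBP2* and *HRB1* were at -0.44, 0.06 and -0.21. None of 16 cyclin and cell cycle regulator genes and none of 12 polyamine genes was called. A single gene was called in each of the lists of pheromone response (21 genes, *FUS2* higher at 0.72 ± 0.09), cell wall mannoproteins (21 genes, *CIS3* lower at -0.91 ± 0.12) and early meiosis (15 genes, *REC104* lower at -0.83 ± 0.09), and none of the 4 α-specific genes. *HHO1*, *TAF10* and *ALG9*, the reference genes for qPCR in the study, differed by 0.33 ± 0.10, 0.12 ± 0.14 and 0.16 ± 0.22.

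W303 was treated in the same way, and its response is given beside that of W303-Δ*sky1*. The W303 arrays enter the link as well, and the difference between the strains in response was not tested. In W303, tested in run 2 with limma, 90 genes were called higher (1.58%) and 87 lower (1.53%). A call in W303 needed 1.6-fold, p under 0.01 and adjusted p under 0.05, whereas a linked call rests on no test. Counts of calls in the 2 strains thus follow different rules. In methionine synthesis from aspartate 2 of 7 were called higher in each strain, and in the other sulfur lists more members were called in W303. The counts in W303 were 6 of 6 in sulfate uptake and activation against 5 in W303-Δ*sky1*, 4 of 4 against 3 in sulfite reductase and sirohaem, 5 of 6 against 4 in the list of homocysteine and cysteine, 4 of 11 against 2 in the AdoMet cycle, 2 of 6 against 1 among the regulators and 8 of 10 against 6 among the transporters. For uptake, sulfite reductase and transporters the list medians were 3.27, 2.31 and 1.53 in W303 and 1.77, 1.43 and 0.84 in W303-Δ*sky1*. *SEO1* rose by 4.83 in W303 (adjusted p = 1.88e-08) beside 2.97 in the deletion strain, and *MET3* by 3.69 (adjusted p = 1.88e-08) beside 1.86. *MET2*, *RAD59*, *TIS11* and *GCV1* were at 2.75, 2.66, 1.95 and 1.52 in W303 beside 2.89, 2.28, 1.77 and 1.66. Within runs, the deletion strain minus W303 was -0.39 for *SEO1* without the drug (limma, adjusted p = 0.0182) and -2.25 with it (adjusted p = 1.09e-07). For *SUL1* the untreated deletion strain was above W303 by 1.41 (adjusted p = 1.62e-04), and with cisplatin the same difference was -0.36 (adjusted p = 9.93e-04).

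For the iron and fatty acid oxidation genes fewer members were called in W303, under its different rule. There, 2 of 15 iron genes were called higher, *TIS11* and *HMX1*, against 7 in W303-Δ*sky1*, and *FIT2* was at 0.44 beside 2.72. In run 1 *FIT2* was at -0.78 in W303-Δ*sky1* relative to W303 (limma, adjusted p = 2.65e-04), and in run 3 it was higher by 1.50 (adjusted p = 3.62e-06). None of the 14 fatty acid oxidation genes was called in W303, with a median of -0.02. The processome and the large subunit assembly factors had medians of -0.07 and -0.08 in W303 with 1 gene called lower in each. These were *NSR1* at -1.12 beside -2.03 in W303-Δ*sky1*, and *DBP2* at -1.15 beside -2.35. Cytosolic ribosomal proteins had a median of -0.53 in W303 with 28 called lower. *GLN1* was at -0.40 in W303 beside -1.80, *MEP2* at -0.55 beside -1.50 and *LYS9* at -0.55 beside -1.46, none of them called in W303. Other falling genes were called lower in both strains. Among these were *AAH1* at -1.11 in W303 beside -2.07 and *RHR2* at -0.85 beside -1.49. *PHO5* was at -1.06 beside -1.13 and *LYS4* at -0.82 beside -1.36. Among the genes with the largest positive gap between W303-Δ*sky1* and W303 were *RGI2*, a respiratory growth gene, at 1.26 in W303-Δ*sky1* and -0.31 in W303, *CSM4* at 1.25 and -0.86, and *YIG1* at 1.16 and -0.42. *ADY2* was at 0.91 in W303-Δ*sky1* and at -1.21 in W303, where it was not called and its untreated levels ran from 6.89 to 8.93.

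**Figure D5:**
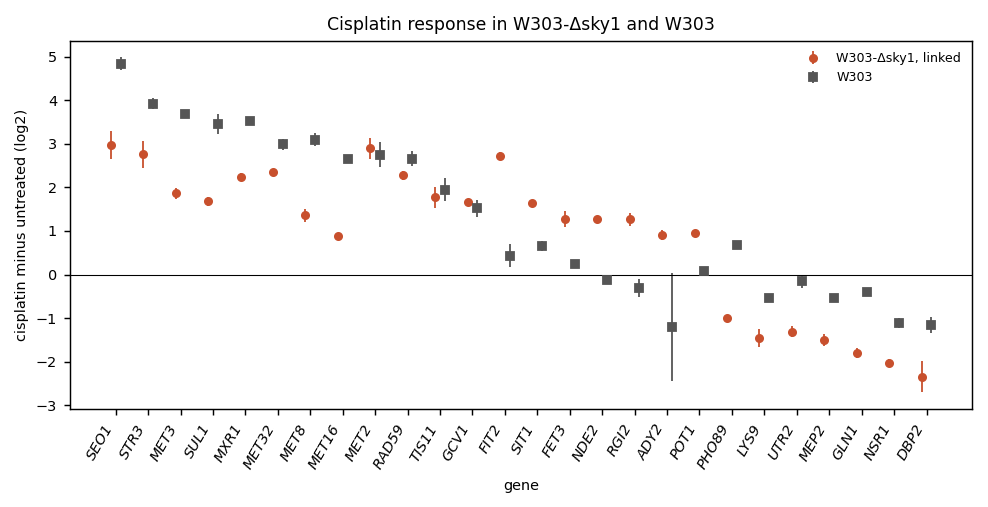
Log2 difference between treated and untreated cells (vertical axis) for 26 genes (horizontal axis), as the linked value of W303-Δ*sky1* (orange circles) and the value of W303 in run 2 (grey squares), each with the SD of 3 differences between arrays of equal replicate number as the error bar. Sulfur genes such as *SEO1* and *MET3* lie higher in W303, *FIT2* and *NDE2* higher in W303-Δ*sky1*, and the difference between the strains was not tested.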

How the data were processed

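RNA of 12 cultures was measured on Affymetrix GeneChip Yeast Genome 2.0 arrays, 3 for each of 4 groups. The authors deposited log2 signals as 3 tables of 6 arrays, each table normalized by RMA on its own, with Affymetrix Expression Console used for image capture and preliminary analysis according to the study. The genome build is not given in the sources used here. The authors' own p-values, FDR values and group means in these tables were not used. All 18 columns of single samples were matched, with 0 unmatched.

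Of 10715 probe sets, the 5714 with an Ensembl entry were kept, 1 for each gene (that with the highest mean), which left 5698 genes, 123 of them on probe sets shared by several genes. Names came from the deposited annotation (4816), from a RefSeq table by locus tag (378) or stayed locus tags (504). The 95th percentile of 4941 *S. pombe* probe sets on each array was taken as background. The number of arrays limits the precision.

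Linked levels were computed in Python 3.11.15 with pandas 2.3.3. Tests were run only within tables, because these were normalized separately, and the linked response is given with its spread and no p. Within each run limma 3.58.1 in R 4.3.3 was used (1.6-fold, p under 0.01, Benjamini-Hochberg adjusted p under 0.05 over all genes). Both procedures were tested on simulated data.

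The study's methods state that the cultures of each strain were divided into aliquots, and the labels number the replicates. The numbers were taken as pairs because every equal-numbered pair correlated above 0.1. Deviations from the group means of W303-Δ*sky1* correlated at 0.328, 0.479 and 0.301 for equal numbers and at -0.057 or less for different ones. Equal numbers also correlated across strains, at 0.256, 0.223 and 0.429 untreated and 0.442, 0.344 and 0.294 treated. A pair of different numbers, treated W303 replicate 3 and treated W303-Δ*sky1* replicate 2, was above 0.1 as well, at 0.129. Deviations from a group mean cancel out, so the values for different numbers are not independent of those for equal ones.

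Named genes are the 15 largest differences each way among called genes above background, up to 4 members with the largest change in each of 42 gene lists and all members of the sulfur lists, the 10 largest differences from W303 in each direction, *SKY1* and the qPCR reference genes. Further list members, such as *FTR1* and *SHM2*, and the genes nearest the threshold were named after their values were seen. The comparison, lists and members were chosen with earlier results of these data known, and lists are described by counts and medians with no set test. Alternatives changed the link, the normalization across the 6 arrays, the pairing, the thresholds, the genes used and the arrays used. Promoter sequences were not used here.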

Additional observations from a re-analysis of the deposited data

Results flagged for a closer look

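The 20 genes with the largest gaps between the responses of the strains, 10 in each direction, were taken from genes called in at least 1 strain. Of these, 8 were singled out because all 3 paired differences of W303-Δ*sky1* ran one way and all 3 of W303 the other. Among the 8, only *PHO89* was called in both strains, and each of the others was under 1.6-fold in 1 strain. The difference between the strains was not tested for any of them, and each linked value has no test of its own. *NDE2*, the external NADH dehydrogenase gene, was at 1.28 in W303-Δ*sky1* and -0.12 in W303, which are 1.40 apart. *RGI2*, a respiratory growth gene, was at 1.26 and -0.31, 1.57 apart. *GID10*, for a substrate receptor of the GID ubiquitin ligase, was at 1.32 and -0.33, 1.65 apart. *FMP48* was at 0.65 and -0.96, a gap of 1.61. *PLM2*, a forkhead-associated domain gene, was at 0.35 and -0.99, a gap of 1.34. The unnamed reading frame *YHR033W* was at 0.50 and -0.97, a gap of 1.48.

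In the opposite direction, *PHO89*, the sodium-phosphate cotransporter gene, went from a mean of 6.68 to 5.68 in W303-Δ*sky1* and differed by 0.69 in W303, so that the value of the deletion strain minus that of W303 was -1.69. *YOR385W* was at -0.30 and 1.01, with a value of -1.30.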

How the results depend on the processing

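The main counts of the linked response, 161 higher and 157 lower, became 179 and 208 with no link, 197 and 173 with quantile normalization of the 6 arrays, 174 and 215 with each array centred on its median, 209 and 163 with cyclic loess, and 161 and 157 with the replicate number as a block, that is, with each array linked through W303 of its own number. The replicate block leaves the mean linked difference of every gene unchanged, so its equal counts and values are largely built in. With any of the 12 arrays left out the counts ran from 155 to 171 and from 147 to 173. Thresholds moved them most, to 56 and 32 at 2-fold and to 1447 and 1784 with no fold threshold. All 318 called genes kept their sign without the link. The fold threshold nearly fixed this, since the link moved differences only by -0.64 to 0.75 over all genes. Of the called genes, 141 higher and 143 lower also passed 1.6-fold without the link, a count added after seeing the data. Of the 98 called genes among the 205 named by rule, 0 changed sign in 17 alternatives, 196 of 1666 values moved by more than 1 SD, and 39, from 10 genes, fell under the threshold (*MET13*, *MHT1*, *YCT1*, *UTP23*, *NOP1*, *RSB1*, *ACS1*, *CYC7*, *DAK2* and *HTB2*). Within runs, the counts higher and lower at 2-fold and with no fold threshold were 80 and 79, and 1199 and 1306, for untreated strains, 50 and 15, and 658 and 793, for W303, and 196 and 236, and 1628 and 1899, for treated strains. With arrays left out they ran from 273 to 326 and 292 to 329, from 84 to 124 and 87 to 108, and from 488 to 529 and 617 to 657. With the replicate block they were 284 and 302, 91 and 87, and 503 and 638. The deposited values hold 3 arrays a group, and no setting adds a table with both groups of W303-Δ*sky1*.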

Other observations

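Some called genes belong to groups outside the lists and were picked after their values were seen, so no test goes with them. Of 34 autophagy-related *ATG* genes measured, 5 were called higher in treated W303-Δ*sky1* and 0 lower, with a median of 0.29. The shares over all genes were 2.83% higher and 2.76% lower. *ATG39* and *ATG40*, for receptors in the autophagy of nuclear envelope and endoplasmic reticulum, went from 8.06, 8.11 and 7.92 to 8.90, 9.15 and 9.12 and from 6.07, 5.83 and 6.13 to 6.90, 6.95 and 7.01. *ATG1*, the kinase that starts autophagy, *ATG4* and *ATG10* differed by 0.75 ± 0.12, 0.79 ± 0.05 and 0.76 ± 0.24. In W303 0 of the 34 were called, with a median of 0.13.

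All 5 *IMD* probe sets were called lower in W303-Δ*sky1*, between -1.33 and -0.91, and 0 in W303, where their median was -0.27. Of 29 peroxin *PEX* genes 1 was called higher, *PEX9*, with a median of 0.13 for the group, beside 6 of 14 genes of peroxisomal fatty acid oxidation. The subunit genes *COX5A* and *COX5B* of cytochrome c oxidase, of which the second is known as the hypoxic form, were at -0.39 and 0.40 and not called, beside the called pair *CYC1* and *CYC7*. Further called genes were *PDC6*, for a pyruvate decarboxylase of low sulfur content, at 1.30 ± 0.18, *ADH2*, for the glucose-repressed alcohol dehydrogenase, at 1.13 ± 0.05, *SMF3*, for a vacuolar iron transporter, at 1.21 ± 0.03, and *RIM4*, for an RNA-binding protein of meiosis, at 1.46 ± 0.16. In W303 these 4 genes were at 1.42, 0.15, 0.48 and 1.07.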
